A study of Mus musculus with 55 samples.

Results

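Gm25848, Gm22009 and Gm25256 are 3 short predicted noncoding genes of the mouse, annotated as a small nucleolar RNA (snoRNA), a small Cajal body-specific RNA (scaRNA) and a small nuclear RNA (snRNA). Out of the 51734 genes in the count tables of single oocytes, they were chosen by their measured levels in the Dnmt3L and Dnmt3a single mutants against the wild type, so these values are given as a description and are not tested. The ADD domain is the part of DNMT3A and DNMT3L that reads histone H3 unmethylated at lysine 4, and the mutations are substitutions meant to disable it. The libraries came from 18 wild-type fully grown oocytes (FGOs), 8 FGOs labelled Dnmt3a+/+ with Dnmt3L D124A/D124A (Dnmt3L ADD/ADD), 8 labelled Dnmt3a ADA/ADA with Dnmt3L+/+ (Dnmt3a ADD/ADD), 8 that carried Dnmt3a ADA/ADA and Dnmt3L D124A/D124A together (double mutant), and 10 wild-type metaphase II (MII) oocytes, the stage reached after maturation of the FGO. Every oocyte gave its own library by the SMART-Seq HT method, and FGOs were taken from the ovaries of females aged 10 to 12 weeks. For MII oocytes the study's methods on in vitro fertilization name females of another age range, injected with inhibin antiserum and human chorionic gonadotropin. Whether the sequenced MII oocytes were obtained in this way is not stated separately. Oocytes of 1 group were taken as replicates by their labels. Which of them came from the same female was not given in the sources used here, so p-values measure the spread between oocytes.

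A snoRNA guides chemical modification of ribosomal and other RNAs in the nucleolus, and a scaRNA does the same for the snRNAs of the spliceosome in Cajal bodies. In mammals most of them lie in introns of other genes, their hosts, and are released when the spliced-out intron is trimmed. U6, the snRNA that Gm25256 matches, forms part of the catalytic core of the spliceosome and is made by RNA polymerase III. SMART-Seq HT starts cDNA synthesis at poly(A) tails, which the mature forms of these RNAs usually lack, so a count here is a count of reads on the annotated interval and does not show which form of RNA they came from.

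The sequences show what each gene could share reads with. Coordinates are on mm10 (GRCm38) as the count tables give them, and the sequences are those of the GENCODE M21 transcripts at the same coordinates. For Gm25848 (chr16:32243712-32243855, minus strand, 144 bases), the capitals mark the letters TGATGA and CTGA, which are those of the C and D boxes of box C/D snoRNAs. The capitals do not assign a gene to that class, here or in the sequences below. Boxes of other classes of snoRNA were not searched for, and the class was not tested. It lies in an intron of Fbxo45 on the same strand, 4956 bases from the nearest exon on the lower side and 2639 on the upper side.

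Gm25848: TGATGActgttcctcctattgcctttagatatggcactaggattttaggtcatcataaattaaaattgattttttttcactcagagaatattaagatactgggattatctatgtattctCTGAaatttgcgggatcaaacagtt

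TGATGA stands at position 1, counted from 1 at the 5′ end, and CTGA at position 120. Of 1558 annotated snoRNA and scaRNA transcripts, 26.5% hold TGATGA on the transcript strand and 79.3% hold CTGA, and 25.6% hold both. Gm22009 (chr3:69085105-69085447, minus strand, 343 bases) lies in an intron of Kpna4 on the same strand, 951 and 240 bases from the neighbouring exons, and its first 300 bases are shown with the same letters in capitals.

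Gm22009: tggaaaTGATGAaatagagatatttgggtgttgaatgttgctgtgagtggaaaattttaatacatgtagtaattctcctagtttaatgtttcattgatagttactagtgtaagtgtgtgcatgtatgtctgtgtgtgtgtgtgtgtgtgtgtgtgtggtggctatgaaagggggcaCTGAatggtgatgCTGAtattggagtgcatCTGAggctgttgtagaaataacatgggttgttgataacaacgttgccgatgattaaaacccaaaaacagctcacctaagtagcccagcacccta

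It holds TGATGA once, at position 7, and CTGA 4 times, at positions 177, 190 and 207 and, past the stretch shown, 335. Outside its own locus it matched no annotated transcript by blastn at an E-value of 1e-05. Gm25256 (chr10:19782854-19782960, plus strand, 107 bases) lies outside annotated genes, and the nearest protein-coding gene, Il20ra, ends 22801 bases away. Its sequence is shared in full by 43 genes in the annotation, itself and Rnu6 among them. All 43 are listed in the count tables, so reads on Gm25256 cannot be tied to chromosome 10 by sequence within the gene. How the counting treated reads with several positions, and whether it used strand, is not given in the sources used here. By the same search Gm25848 had 3 relatives, of which Gm25776 on chromosome 12 matched over the longest stretch. It aligned to 141 bases of Gm25848 at 90.8% identity and is shown with CTGA in capitals, since TGATGA is not among its letters.

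Gm25776: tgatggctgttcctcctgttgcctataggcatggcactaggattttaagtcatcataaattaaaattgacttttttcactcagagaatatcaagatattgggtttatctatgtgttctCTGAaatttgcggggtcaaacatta

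Total counts ran from 7832458 to 23739871 per library. By the study's own summary of its reads, under 80% of reads were mapped in wild-type replicates 1 to 8 and in every double mutant library, and 80% or more in wild-type replicates 9 to 18 and in every Dnmt3L ADD/ADD library. Dnmt3a ADD/ADD FGOs held 3 libraries of the first class and 5 of the second, and MII oocytes 3 and 7. What made the classes is not known here, and the comparisons of the 3 genes are therefore also given with wild-type FGOs of 1 class. All 10 oocyte markers examined were counted in every group, with sums from 7561 to 13445 CPM (CPM, the count relative to the library total, which was scaled by edgeR's TMM method). The 7 theca and interstitial markers summed to between 14.6 and 148 CPM in wild-type FGOs, with Insl3 at 0, to between 2.09 and 6.06 in double mutant FGOs, again with Insl3 at 0, and to between 2.18 and 12.5 in MII oocytes, with Cyp17a1 and Insl3 at 0. The 6 stroma and smooth muscle markers summed to 1.93 to 24.9, 0.266 to 1.54 and 0.0997 to 1.97 CPM in the same 3 groups, and Acta2 was at 0 in the second and the third. The 10 granulosa markers summed to 120 to 199, 126 to 152 and 112 to 132 CPM there, with Amh at 0 in MII oocytes. The 6 endothelium and blood markers summed to 60.1 to 99.4, 47.2 to 73.5 and 79.0 to 101 CPM. Hba-a1 and Hbb-bs were at 0 in double mutant FGOs and in MII oocytes. With the Dnmt3L and with the Dnmt3a mutation alone the theca sums ran from 10.1 to 51.7 and from 7.86 to 57.3 CPM, and the stroma sums from 2.08 to 8.13 and from 1.39 to 59.0. In the same order the granulosa sums ran from 113 to 145 and from 116 to 167 CPM. The endothelium and blood sums ran from 74.3 to 94.9 and from 80.2 to 131 CPM. Their part in the results below was not tested.

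In wild-type FGOs, Gm25848 ran from 1.89 to 6.77 CPM with a median of 5.23 (mean 4.74 ± 1.39, SD, n = 18). Gm22009 ran from 3.31 to 12.9 CPM with a median of 7.65 (mean 7.28 ± 2.84, SD, n = 18). Gm25256 was at 0 in 13 of the 18 libraries, and the other 5 held 1, 2, 2, 8 and 10 counts, at most 0.585 CPM. Per kilobase of gene, the mean levels were 32.9, 21.2 and 0.712 CPM. The first pair was thus counted in every wild-type FGO, whereas the U6 gene was rarely counted at all. If counts are independent, a count of 0 allows up to 3 counts, which is between 0.126 and 0.383 CPM at the depths of the 52 libraries.

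**Figure D1:**
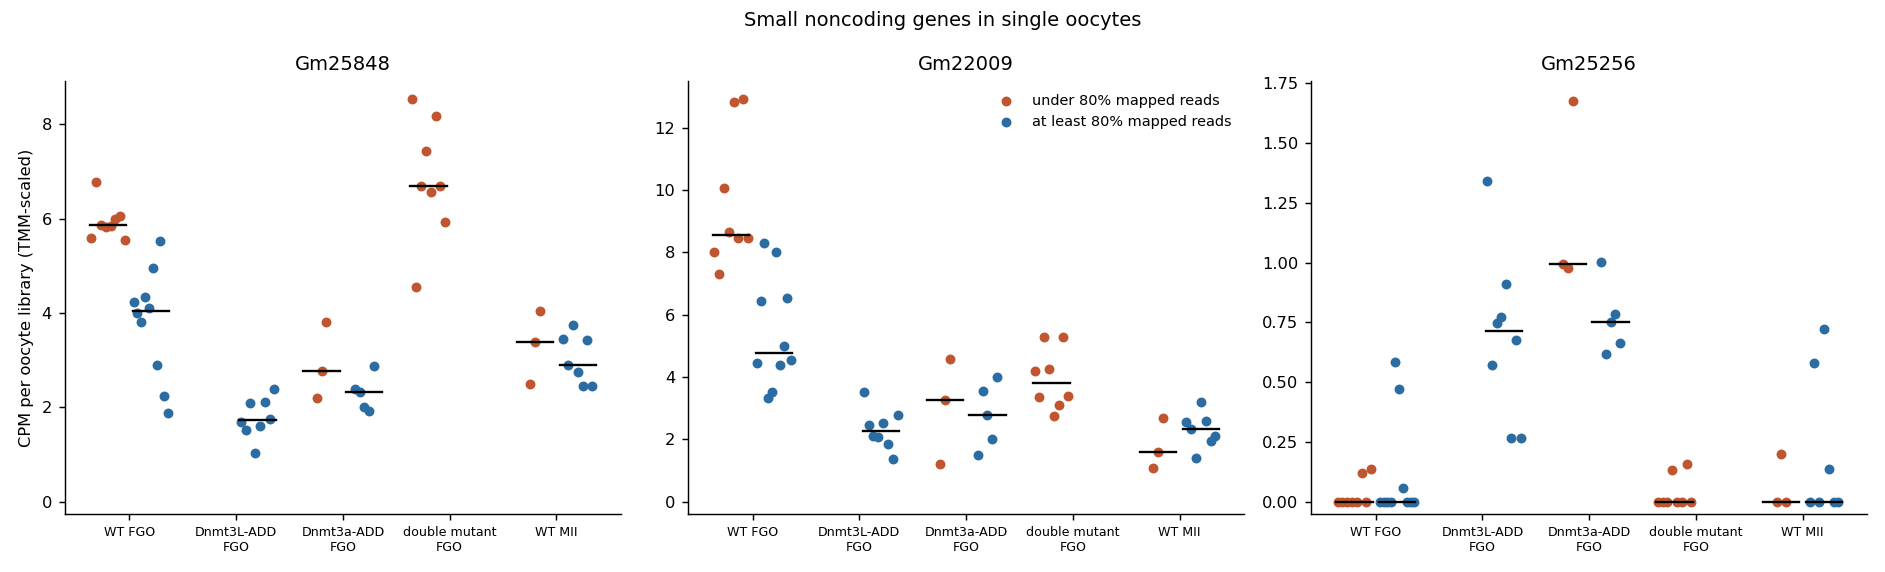
Level of each gene in CPM (TMM-scaled, linear axis) in every oocyte library, by group and by class of mapped reads (colour), with a black line at the median of each class. Gm25848 and Gm22009 are low in both single mutants, Gm25848 runs from 4.54 to 8.54 CPM in the double mutant, and Gm25256 is above 0 in all 16 single mutant libraries but in 2 of 8 double mutant libraries.

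In both single mutants the snoRNA and the scaRNA gene stood lower than in the wild type and the U6 gene higher, which is the pattern they were picked for. With the Dnmt3L mutation alone Gm25848 ran from 1.03 to 2.39 CPM (median 1.72, n = 8), and 5 of the 8 libraries lay under the whole wild-type range. The log2 difference from the wild type was -1.40 (standard error 0.19), and -1.08 when set against the 10 wild-type FGOs of the same class. With the Dnmt3a mutation alone it ran from 1.91 to 3.80 CPM (median 2.35, n = 8), with a log2 difference of -0.90 (standard error 0.18). All 8 of these libraries lay within the wild-type range, near its lower end. Within classes the differences were -0.73 for the 5 libraries with at least 80% mapped reads and -1.01 for the 3 with under 80%.

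Gm22009 ran from 1.36 to 3.53 CPM with the Dnmt3L mutation (median 2.27, n = 8) and from 1.19 to 4.58 with the Dnmt3a mutation (median 3.01, n = 8). Of these, 7 of 8 and 5 of 8 libraries were under the lowest wild-type FGO. The log2 differences were -1.64 (standard error 0.24) and -1.34 (standard error 0.23). Among libraries with at least 80% mapped reads they were -1.22 and -0.99, and among those with under 80% the Dnmt3a ADD/ADD value was -1.65. Both genes had the same sign of difference in each class that could be compared. These are the libraries the genes were picked on, so this is no separate support.

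Gm25256 was above 0 in all 8 libraries of each single mutant. Its counts ran from 4 to 16 in Dnmt3L ADD/ADD FGOs, which is 0.265 to 1.34 CPM (median 0.714), and from 6 to 30 in Dnmt3a ADD/ADD FGOs, which is 0.619 to 1.68 CPM (median 0.882). All 8 Dnmt3a ADD/ADD libraries lay above the highest wild-type FGO, and so did 5 of the 8 Dnmt3L ADD/ADD libraries. Summed over libraries there were 72 counts in 111510822 with the Dnmt3L mutation and 112 in 119107415 with the Dnmt3a mutation, beside 23 in 270809107 in the wild type, of which replicates 13 and 14 held 10 and 8. No fold is read for this gene, since the wild-type mean of 0.0762 CPM lies under the level that a count of 0 allows. Of all genes tested, 0.655% with the Dnmt3L mutation and 2.05% with the Dnmt3a mutation passed an adjusted p of 0.05 and over 2-fold, and nothing is read from these shares here.

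Double mutant libraries were not used to pick the genes, but the 18 wild-type FGOs they are set against were, and a wild-type level that was high or low by chance would move every comparison of a gene in the same direction. The same wild-type libraries serve in the comparisons with MII oocytes and between wild-type sets, and the p-values do not allow for the choice. In the double mutant Gm22009 was lower than in the wild type, Gm25848 stood higher and Gm25256 was mostly at 0. Gm25848 ran from 4.54 to 8.54 CPM in double mutant FGOs (median 6.69, mean 6.82 ± 1.27, SD, n = 8), and 3 of the 8 libraries lay above the highest wild-type FGO. It was 0.52 higher on the log2 scale (standard error 0.16, adjusted p = 0.0326, edgeR quasi-likelihood test with Benjamini-Hochberg adjustment over 15726 genes). This was under the 2-fold limit for a call. With the 8 wild-type libraries of its own class the difference was 0.20 (adjusted p = 0.691 from edgeR) and against the other 10 it was 0.83 (adjusted p = 0.000939 from edgeR), so it was not resolved from the spread within the class. It also lost an adjusted p under 0.05 without double mutant replicate 1, 3, 4, 6 or 7, at 0.0655 at most.

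Gm22009 ran from 2.75 to 5.30 CPM in double mutant FGOs (median 3.79, mean 3.96 ± 0.97, SD, n = 8). All 8 libraries lay under the 8 wild-type FGOs of their class, which ran from 7.30 to 12.9 CPM, while they overlapped with the other 10, at 3.31 to 8.31 CPM. It fell by 0.89 on the log2 scale (standard error 0.22, adjusted p = 0.00894 from edgeR), within 2-fold. Within its own class it fell by 1.29 (standard error 0.17, adjusted p = 0.000692 from edgeR), past the 2-fold limit, and against the others by 0.47 (adjusted p = 0.0593 from edgeR). Genotype and class cannot be told apart in the latter.

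Gm25256 had 2 counts in each of 2 double mutant libraries (replicates 4 and 7) and none in the other 6. It passed the filter on low counts only through the single mutants, for which it was picked, and no test of it is given. Summed over libraries, the 4 counts in 111305290 were 0.423 times the rate of the 23 counts in 270809107 of the wild type (exact 95% interval 0.106 to 1.24, counting error only). The interval takes each count as independent, whereas 26 of the 27 counts above 0 of Gm25256 were even, so it may be too narrow. Of the other 2 genes, 0 were called in the double mutant by edgeR at an adjusted p under 0.05 and over 2-fold, where 1.65% of all genes were, and both passed without the fold limit, where 12.2% did. By DESeq2 also 0 were called, and both had an unadjusted p under 0.05 in edgeR.

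**Figure D2:**
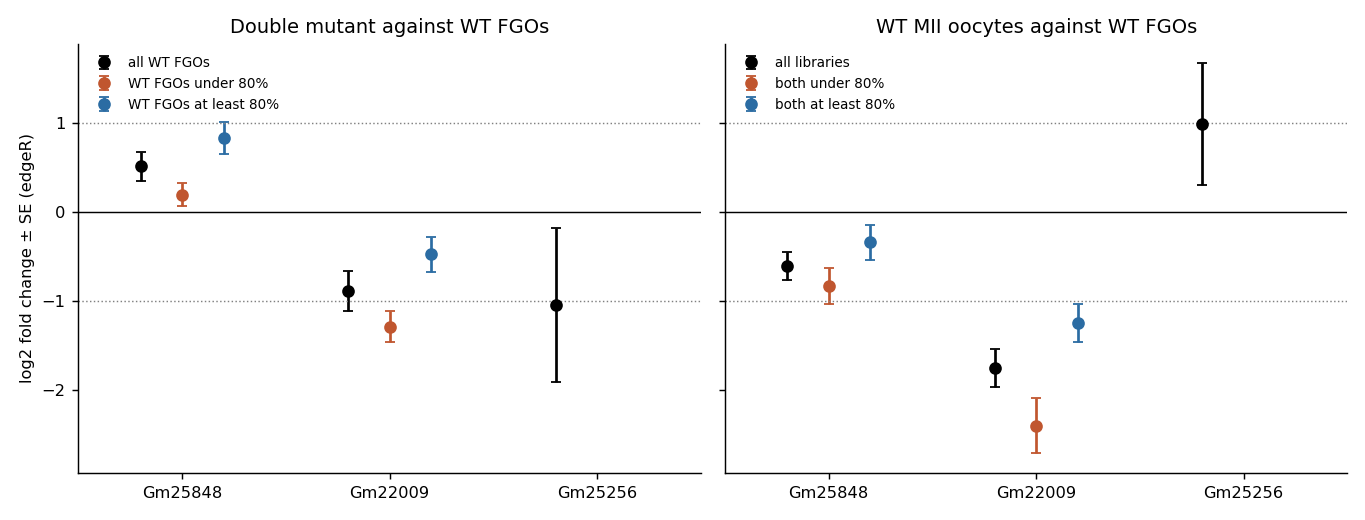
Log2 fold change with standard error (edgeR) of the 3 genes in double mutant FGOs (left) and in MII oocytes (right) against wild-type FGOs, with all wild-type libraries (black) and with those of 1 class of mapped reads (colours), where the dotted lines mark 2-fold. Gm22009 is below 0 in every fit, at -0.47 to -1.29 in the double mutant and at -1.25 to -2.40 in MII oocytes, and Gm25256, which passed the filter on low counts only through the single mutant libraries, is drawn without a test.

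The stages were compared in the wild type, between MII oocytes and FGOs. Stage cannot be told apart here from a difference in hormone treatment or age of the females. Gm22009 fell in MII oocytes, to 1.09 to 3.19 CPM (median 2.21, mean 2.15 ± 0.65, SD, n = 10). All 10 MII libraries lay under the lowest of the 18 wild-type FGOs. The log2 difference was -1.75 (standard error 0.21, adjusted p = 3.7e-09 from edgeR over 15784 genes). It was -1.25 between libraries with at least 80% mapped reads (7 against 10, adjusted p = 0.000131 from edgeR) and -2.40 between those with under 80% (3 against 8, adjusted p = 0.000547 from edgeR). The call was thus made in both classes.

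Gm25848 ran from 2.45 to 4.05 CPM in MII oocytes (median 3.14, mean 3.11 ± 0.58, SD, n = 10), within the wild-type range. It fell by 0.61 on the log2 scale (standard error 0.15, adjusted p = 0.00152 from edgeR), and by 0.83 among libraries with under 80% mapped reads (adjusted p = 0.0216 from edgeR). Among those with at least 80% the difference was -0.34 (adjusted p = 0.214 from edgeR). Gm25256 had 2, 2, 8 and 10 counts in 4 MII libraries and none in the other 6. It again passed the filter only through the single mutants and is given without a test, and the summed rate was 1.99 times that of FGOs (exact 95% interval 1.06 to 3.73, counting error only, without the spread between oocytes). This interval too takes each count as independent and may be too narrow with even counts, so nothing is read from its lower end. Of the other 2 genes, 1 was called, where 9.2% of all genes were, and both passed without the fold limit, where 39.1% did.

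Wild-type FGOs of the 2 classes of mapped reads carry the same labels, and comparing them gives the size of a difference that genotype does not set. Gm25848 ran from 5.54 to 6.77 CPM in the 8 libraries with under 80% mapped reads (mean 5.93 ± 0.38, SD) and from 1.89 to 5.51 in the 10 with at least 80% (mean 3.80 ± 1.14, SD), so that the ranges did not overlap but nearly touched. It was 0.65 higher on the log2 scale in the former (standard error 0.17, adjusted p = 0.00951 from edgeR over 14664 genes). Gm22009 had means of 9.58 ± 2.16 (SD, n = 8) and 5.44 ± 1.77 CPM (SD, n = 10), and was higher by 0.82 (standard error 0.18, adjusted p = 0.00339 from edgeR). Gm25256 held 4 counts in the former set and 19 in the latter, and did not pass the filter on low counts. Both tested genes passed an adjusted p of 0.05, where 25.4% of all genes did, and 0 of 2 passed 2-fold too, where 3.72% did (DESeq2 also called 0 of 2, and both had an unadjusted p under 0.05 in edgeR). For Gm25848 this difference of 0.65 stands beside 0.52 between the double mutant and all wild-type FGOs, and the pair was not tested against each other.

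Host genes were followed because a spliced-out intron is the usual source of a snoRNA or scaRNA. Fbxo45, which encodes an F-box protein of ubiquitin ligases, had means of 14.8 ± 8.42 CPM in wild-type (SD, n = 18), 11.2 ± 2.04 in Dnmt3L ADD/ADD (SD, n = 8), 11.6 ± 5.98 in Dnmt3a ADD/ADD (SD, n = 8) and 21.9 ± 6.71 in the double mutant FGOs (SD, n = 8) and 7.95 ± 1.84 in MII oocytes (SD, n = 10). In the double mutant its log2 difference was 0.56 (standard error 0.24, adjusted p = 0.111 from edgeR), with 0.19 within the class (adjusted p = 0.915) and 0.93 against the other 10 wild-type FGOs (adjusted p = 0.000387 from edgeR). It fell by 0.90 in MII oocytes (adjusted p = 0.00139 from edgeR). Within classes the latter was -0.52 (adjusted p = 0.0369) and -1.29 (adjusted p = 0.0998 from edgeR, under 80%). Per kilobase, the level of Gm25848 was a median of 10.7 times that of Fbxo45 in the wild type. It was 4.38 times with the Dnmt3L mutation, 7.37 times with the Dnmt3a mutation, 8.36 times with both and 12.9 times at MII. The wild-type libraries with at least 80% mapped reads, the class of all Dnmt3L mutant libraries, also had a median of 10.7 (3.73 to 19.0), and the Dnmt3L mutant libraries ran from 2.94 to 8.23. Wild-type libraries with under 80% mapped reads had a median of 10.8. The Dnmt3a mutant libraries had medians of 5.59 with at least 80% (n = 5) and 10.1 with under 80% (n = 3). Wdr53, on the other strand and 3372 bases away, fell by 0.36 in the double mutant (adjusted p = 0.00333 from edgeR) with -0.23 within the class (adjusted p = 0.483) and -0.46 against the other wild-type FGOs (adjusted p = 1.95e-05 from edgeR), and its MII difference was -0.10 (adjusted p = 0.249 from edgeR).

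**Figure D3:**
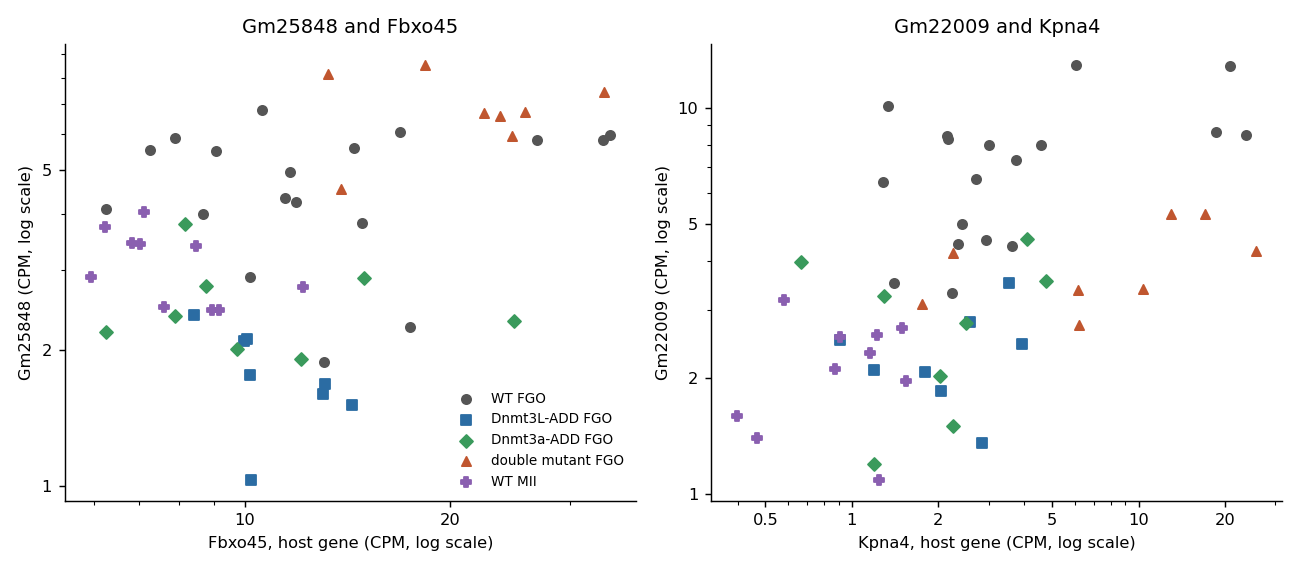
Level of Gm25848 against its host Fbxo45 (left) and of Gm22009 against its host Kpna4 (right) in each oocyte library, in CPM on log axes, with 1 symbol for each group. The host levels spread widely, for Kpna4 from 1.29 to 23.6 CPM among wild-type FGOs, while Gm22009 spans 3.31 to 12.9 CPM there.

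Kpna4, an importin alpha for nuclear import, had means of 5.84 ± 7.15 CPM in the wild type (SD, n = 18), 2.36 ± 1.06 with the Dnmt3L mutation (SD, n = 8), 2.35 ± 1.42 with the Dnmt3a mutation (SD, n = 8), 10.3 ± 8.15 in double mutant FGOs (SD, n = 8) and 0.991 ± 0.413 in MII oocytes (SD, n = 10). Wild-type FGOs were far apart, from 1.29 to 23.6 CPM, and those with under 80% mapped reads were higher by 2.08 on the log2 scale (adjusted p = 0.00235 from edgeR). In MII oocytes Kpna4 fell by 2.54 (adjusted p = 5.98e-05 from edgeR), with -1.32 among libraries with at least 80% mapped reads (adjusted p = 0.000603) and -3.23 among the others (adjusted p = 0.0519 from edgeR). In the double mutant its difference was 0.81 (adjusted p = 0.234 from edgeR), with 0.01 within the class (adjusted p = 0.999), where Gm22009 fell, and 2.09 against the other wild-type FGOs (adjusted p = 0.000201 from edgeR). The ratio of Gm22009 to Kpna4 per kilobase had a median of 52.2 in wild-type FGOs (9.34 to 195), 27.1 with the Dnmt3L mutation, 27.4 with the Dnmt3a mutation, 11.1 in the double mutant and 58.8 in MII oocytes. Over the 42 FGO libraries the Pearson correlation of log2 CPM, across libraries that share group, class and depth, was 0.40 for Gm25848 with Fbxo45 and 0.40 for Gm22009 with Kpna4, given as a description.

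Gm25776, the relative of Gm25848, lies within Gtf2a1, which encodes a subunit of the general transcription factor TFIIA, and was followed for its likeness in sequence. Its mean was 6.69 ± 3.12 CPM in the wild type (SD, n = 18), 3.19 ± 0.79 with the Dnmt3L mutation (SD, n = 8), 4.54 ± 1.60 with the Dnmt3a mutation (SD, n = 8), 6.28 ± 1.45 in double mutant FGOs (SD, n = 8) and 3.29 ± 1.01 in MII oocytes (SD, n = 10). In the double mutant its log2 difference was -0.10 (standard error 0.22, adjusted p = 0.8 from edgeR), with -0.63 within the class (adjusted p = 0.103) and 0.53 against the other wild-type FGOs (adjusted p = 0.00613 from edgeR), so that its direction turned with the wild-type set. It fell in MII oocytes by 1.02 (adjusted p = 0.000105 from edgeR) and was higher by 1.17 in wild-type libraries with under 80% mapped reads (adjusted p = 2.17e-05 from edgeR). In MII oocytes the fall was 1.40 among libraries with under 80% mapped reads (adjusted p = 0.00536), and among the others the difference was -0.46 (adjusted p = 0.0561 from edgeR).

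Gm25256 was set beside the other 42 U6 genes of the same sequence. Their counts were unequal, from 2 to 823 over all 52 libraries, and Gm25256 was the fifth by total. Summed over the other 42, the level ran from 1.43 to 5.83 CPM in wild-type FGOs (mean 3.22 ± 1.25, SD, n = 18), from 3.52 to 6.32 in Dnmt3L ADD/ADD (mean 5.02 ± 0.92, SD, n = 8) and from 4.39 to 9.28 in Dnmt3a ADD/ADD FGOs (mean 6.34 ± 1.83, SD, n = 8). It ran from 1.57 to 5.65 in double mutant FGOs (mean 3.13 ± 1.34, SD, n = 8) and from 2.02 to 4.58 in MII oocytes (mean 3.27 ± 0.74, SD, n = 10). Over both classes each group overlapped with the wild type. Within classes, Dnmt3a mutant libraries lay above the wild type without overlap, at 7.16 to 9.28 against 1.43 to 5.83 CPM with under 80% mapped reads and at 4.39 to 6.92 against 2.25 to 3.81 CPM with at least 80%. The Dnmt3L mutant libraries, at 3.52 to 6.32 CPM, overlapped with the latter wild-type range only at its upper end. Gm25256 made up a mean of 1.79% of these U6 counts per wild-type FGO, 11.8% with the Dnmt3L mutation, 12.8% with the Dnmt3a mutation, 0.711% in double mutant FGOs and 3.88% in MII oocytes.

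**Figure D4:**
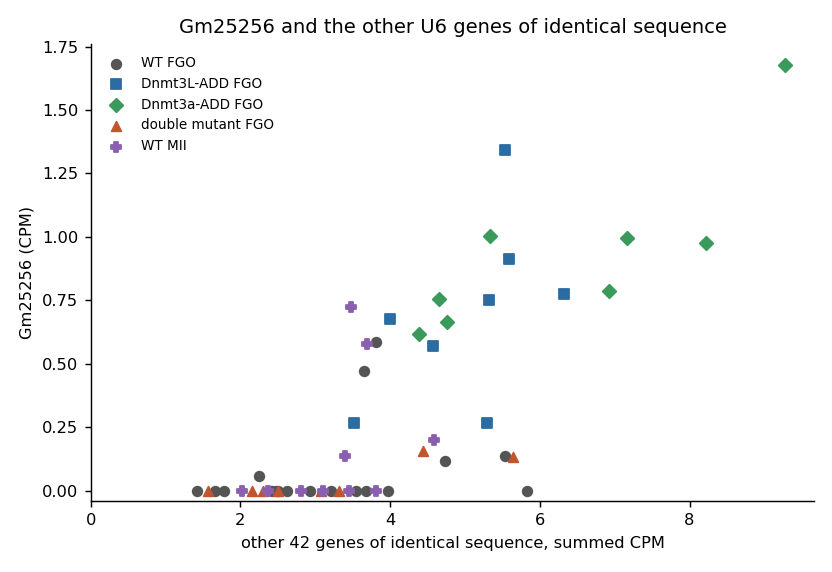
Level of Gm25256 against the summed level of the other 42 genes of identical sequence in each oocyte library, in CPM on linear axes from 0, with 1 symbol for each group. Most libraries of the wild type, the double mutant and MII oocytes lie at 0 on the vertical axis, while single mutant libraries lie above 0 and to the right, up to 1.68 and 9.28 CPM.

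The copies did not share 1 order of groups. Gm24260 had means of 0.235 CPM in the wild type, 0.777 with the Dnmt3L mutation, 1.04 with the Dnmt3a mutation, 0.106 with both and 0.409 at MII, the same order as for Gm25256. Gm24967 had means of 0.414, 0.194, 0.315, 0.322 and 0.355 CPM in the same groups. The mean was above that of the wild type in 25 of the 43 genes with the Dnmt3L mutation, in 29 with the Dnmt3a mutation, in 19 with both and in 19 at MII. Of the other 42, Gm23512, the most counted, passed the filter without the single mutants, and its differences were 0.22 in the double mutant (adjusted p = 0.466 from edgeR) and -0.14 in MII oocytes (adjusted p = 0.58 from edgeR). Gm24260 and Gm24967 passed it only together with the single mutants and are given without a test.

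The genes most alike in level over the 42 FGO libraries, out of 15726, were named by Pearson's r of log2 CPM. For Gm25848 they were Cox7c (0.86) and Cox7a2 (0.86), which encode subunits of cytochrome c oxidase, and Rps27l (0.83), a ribosomal protein S27-like gene. For Gm22009 they were Gm13340 (0.74) and Gm28437 (0.74), both annotated as unprocessed pseudogenes, and Zfp345 (0.73), a zinc finger gene. For Gm25256 they were Gm42887 (0.88), an unclassified transcript on chromosome 5, the identical U6 gene Gm24260 (0.86), and Polr2i (0.82), which encodes a subunit of RNA polymerase II. Among the 3 genes themselves, Gm25848 and Gm22009 had an r of 0.62, and Gm25256 had -0.69 with the former and -0.60 with the latter. These correlations hold the group differences for which the genes were chosen, and the libraries share group, class and depth.

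Other small RNA genes were counted over lists, to set the 3 genes beside their kind. Of the other annotated snoRNA and scaRNA genes, 91 were tested in the double mutant, and 1 was higher (Gm22661) and 3 lower (Snord17, Snord15a and Rnu3a) at the call limits, where 1.65% of all genes were called, with a median log2 difference of 0.20 against -0.01 over all genes. With wild-type libraries of the same class 0 of 73 were higher and 7 lower (median -0.30), beside 4 higher and 72 lower of 14279 genes in all. Against the others 14 of 56 were higher and 0 lower (median 0.67), beside 436 and 258 of 14476 genes, so the direction turned with the wild-type set. Snord17, a guide RNA of the C/D class, fell by 1.44 in the double mutant (standard error 0.41, adjusted p = 0.0193 from edgeR) and by 2.17 within the class (adjusted p = 0.00756). Snord15a fell by 1.05 (adjusted p = 0.0475 from edgeR) and by 1.71 within the class (adjusted p = 0.00468). Like Gm22009 they were lower against both sets, at -0.39 and -0.18 against the other wild-type FGOs, where neither passed (adjusted p = 0.338 and 0.559 from edgeR). With the Dnmt3L mutation alone 14 of 91 of these genes were lower and 0 higher (median -0.58), where 0.655% of all genes were called. With the Dnmt3a mutation alone 2 of 91 were lower and 5 higher (median 0.02), where 2.05% were. These counts are against wild-type FGOs of both classes and were not made within a class.

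In MII oocytes 49 of 90 tested snoRNA and scaRNA genes were lower and 0 higher at the call limits, where 9.2% of all genes were called (1421 lower and 31 higher of 15784), with a median log2 difference of -1.09. With libraries of under 80% mapped reads alone 40 of 88 were lower (median -1.68), beside 652 of 15464 genes in all, and with those of at least 80% alone 1 of 46 was lower (median -0.45), beside 604 of 14314. Between the 2 sets of wild-type FGOs 42 of 67 were higher in the libraries with under 80% mapped reads and 0 lower, where 3.72% of all genes were called, with a median of 1.23 against 0.04 over all genes. That median stands beside 0.65 for Gm25848 and 0.82 for Gm22009 in the same comparison. Of the other annotated snRNA genes, beside the same shares over all genes, 0 of 19 were called in the double mutant by edgeR (0 also without the fold limit), 4 of 18 were lower and 0 higher in MII oocytes, and 4 of 13 were higher and 0 lower in wild-type libraries with under 80% mapped reads. With wild-type libraries of its own class 0 of 15 were called in the double mutant, and against the others 3 of 13 were higher and 0 lower. In MII oocytes 3 of 21 were lower with under 80% mapped reads, and 0 of 13 were called with at least 80%. The counts over all genes in these fits are those given above for snoRNA and scaRNA genes.

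Among 30 small RNAs with known roles, 13 passed the filter, and 4 were lower and 0 higher in the double mutant, where 1.65% of all genes were called. Rmrp, the RNA of RNase MRP, fell by 1.31 (adjusted p = 0.0363 from edgeR) with -1.90 within the class (adjusted p = 0.0576 from edgeR). Rnu3a, a U3 snoRNA of ribosomal RNA processing, fell by 1.53 (adjusted p = 0.0339 from edgeR) and by 2.18 within the class (adjusted p = 0.0237). Rny3, a Y RNA bound by the Ro protein, fell by 1.16 (adjusted p = 0.00785 from edgeR), with -0.74 within the class (adjusted p = 0.28). Rn7s6 fell by 1.70 (adjusted p = 0.035 from edgeR) and was not tested within the class. Its mean was 0.168 CPM in the double mutant and 0.549 in the wild type. The former lies within the range that a count of 0 allows, so the size of this fall is not read. In MII oocytes 4 of the 13 were lower and 1 higher, where 9.2% of all genes were called, and in wild-type libraries with under 80% mapped reads 2 of 12 were higher and 0 lower, where 3.72% were. At MII Rmrp fell by 4.16 (adjusted p = 7.2e-09 from edgeR), Rnu3a by 3.22 (adjusted p = 4.9e-07) and Snord118, the U8 snoRNA, by 1.34 (adjusted p = 8.3e-06), and each also had an adjusted p under 0.05 within both classes. Rny3 fell by 1.67 (adjusted p = 9.1e-06 from edgeR), with -1.07 among libraries with under 80% mapped reads (adjusted p = 0.0764 from edgeR), and Rn7s6 was higher by 1.08 (adjusted p = 0.0175 from edgeR), which did not pass within either class.

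Genes for the proteins that make, carry or degrade these RNAs were counted in the same way. At the call limits 0 genes were higher or lower in the double mutant by edgeR among 17 tested snoRNP proteins, 27 snRNP and assembly proteins, 28 factors of RNA polymerase III and snRNA transcription, 11 proteins of 7SK, La and Ro particles, 31 factors of processing and decay, and 21 further snoRNA host genes. Without the fold limit 4, 6, 1, 1, 7 and 3 of them passed, where 12.2% of all genes did. In MII oocytes, where 9.2% of all genes were called, 0 snoRNP genes, 4 snRNP and assembly genes, 4 of the transcription list, 1 of the 7SK list, 1 of processing and decay and 4 host genes were lower over 2-fold, and 0 were higher. Snrpb, a core snRNP protein, fell by 1.07 (adjusted p = 2.65e-05 from edgeR), with -1.21 among libraries with under 80% mapped reads (adjusted p = 0.104 from edgeR). Gtf3c5, a subunit of TFIIIC, fell by 1.07 (adjusted p = 0.00107 from edgeR), with -0.94 in the same class (adjusted p = 0.275 from edgeR). Hexim1, an inhibitor of P-TEFb bound to 7SK, fell by 2.58 (adjusted p = 0.000265 from edgeR), with -2.45 in that class (adjusted p = 0.0862 from edgeR). Rps3, a ribosomal protein, fell by 2.17 (adjusted p = 4.84e-19 from edgeR) and also passed within both classes. Among genes of these lists by name, 2 of 37 Snora, Snord and Scarna genes were lower in the double mutant and 26 of 37 in MII oocytes, 1 of 2 Rnu genes was lower in each (Rnu3a), and of 5 and 4 Mir genes 0 and 1 (Mir99ahg) were lower. Mir99ahg is annotated as a processed transcript and is in the list by its name only. Of 122 Gm genes of at most 300 bases, 1 was higher and 1 lower in the double mutant, near the 1.65% of all genes called, and in MII oocytes 2 of 121 were higher and 26 lower, beside 9.2% of all genes.

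The mutations are substitutions and leave the RNA of their genes to be counted. Dnmt3a differed by 0.04 (adjusted p = 0.684 from edgeR) and Dnmt3l by -0.06 (adjusted p = 0.693) on the log2 scale between double mutant and wild-type FGOs, and the counts of these genes do not check the labels.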

How the data were processed

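The authors deposited raw counts of reads per gene for 52 single-oocyte libraries, without normalization. Per the labels and the study's methods, reads were aligned to mm10 with STAR. The methods name both featureCounts and HTSeq for counting. The annotation release is not given in the sources used here. Of the 51734 genes, 44549 have the symbol and coordinates of GENCODE M21, the 3 genes among them. Allelic tables of 3 embryos hold none of the 3 genes and were not used.

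Tests used edgeR 4.0.16 under R 4.3.3 with TMM scaling, filterByExpr (minimum count 10) and the quasi-likelihood test, and a call needed over 2-fold and an adjusted p (Benjamini-Hochberg) under 0.05, in a fit of the 42 FGO libraries, one of all 52 and one of the 18 wild-type FGOs. DESeq2 1.42.0 and the exact test of edgeR were alternatives. The tests were tested on simulated data. The biological coefficient of variation was 25.2% in the 42 FGO libraries. Ranges and intervals from counts cover counting error only and take each count as independent, because no molecular identifiers mark which reads share a molecule. No 2 libraries of a group agreed within counting noise (chi-square at least 5.02 per degree of freedom). Sequences were compared with blastn 2.17.0. The sequence of Gm25256 is not reported here. The genes and lists were chosen with earlier results of these data known. Named beside the 3 genes were those within 10 kb, the 3 most alike, identical or related genes, Dnmt3a, Dnmt3l and at most 4 called genes per list. The identical and related genes, the lists by annotated type and their counts by class were added after seeing the data.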

Additional observations from a re-analysis of the deposited data

Results flagged for a closer look

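Gaps between libraries were examined in 18 sets of 8 or 10 libraries (3 genes in 6 sets), where chance alone gives about 1 flag in 20 sets, and 2 libraries stood apart. Dnmt3a ADD/ADD replicate 8 held 1.68 CPM of Gm25256 and the next library of that group 1.00, a gap of 0.637 of the whole range, where 0.526 is the limit for 8 libraries. The same library had the highest level of Gm25848 and of Gm22009 in its group, at 3.80 and 4.58 CPM, and the highest sum of the other identical U6 genes, at 9.28 CPM. Wild-type FGO replicate 2 held 6.77 CPM of Gm25848 and the next of the 8 libraries with under 80% mapped reads 6.05, a gap of 0.582 of the range.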

How the results depend on the processing

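The scaling changed no call of Gm25848 or Gm22009: RLE or upper-quartile normalization kept direction and call for both in each comparison. CPM over plain totals moved 15 of 15 group means of the 3 genes by less than 1 SD. Without the fold limit, Gm25848 (0.52) and Gm22009 (-0.89) passed in the double mutant, Gm25848 (-0.61) in MII oocytes, and Gm25848 (0.65) and Gm22009 (0.82) between wild-type sets. Gm22009 in the double mutant passed 2-fold with class as a covariate (-1.19), with wild-type FGOs under 80% (-1.29) and with replicate number as a block (-1.28). Mutant replicates run from 1 to 8, so the block sets them against wild-type replicates 1 to 8, which are the wild-type FGOs under 80%. All double mutant libraries are in that class, so the covariate also leans on it. These settings are thus not separate support. Gm25256 passed the filter only through the single mutants, so no test of it is given. Its fitted value in the double mutant was -1.04 and turned to 0.027 with the block, which uses the same part of the wild type. That part and the double mutant held 4 counts each, so the turn goes with the change of wild-type set. Replicate numbers did not pair the libraries: same-numbered double mutant and wild-type libraries had correlations of their deviations from -0.514 to 0.468, MII and wild-type ones from -0.0848 to 0.0564, and 0 correlated best with their own number. The block called 6 genes higher and 122 lower in the double mutant, and the fit without it 28 and 232. For Gm25848 the double mutant difference had an adjusted p under 0.05 in 7 of 12 alternatives (range 0.000939 to 0.715), with values from 0.19 to 0.83.

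Without 1 library, the double mutant difference ranged from 0.46 to 0.58 for Gm25848 and from -0.96 to -0.82 for Gm22009. The MII difference ranged from -0.66 to -0.57 and from -1.84 to -1.67 for the first and the second gene. That between wild-type sets ranged from 0.57 to 0.72 and from 0.74 to 0.91 in the same order. No call changed. Single mutant differences moved by more than 1 SD for Gm22009 in Dnmt3L ADD/ADD FGOs (-1.22 with at least 80%). The fitted value of Gm25256 in Dnmt3a ADD/ADD FGOs also moved (2.64 with at least 80% and 4.84 with under 80%, beside 3.40). These values of Gm25256 are not read as folds, since its wild-type mean of 0.0762 CPM lies under the level that a count of 0 allows. The 8 wild-type FGOs with under 80% held 4 counts of it, and the gene was picked on this comparison. For snoRNA and scaRNA genes, 0 were higher and 7 lower in the double mutant with wild-type FGOs under 80%, 14 higher and 0 lower with at least 80%, and 1 was lower in MII oocytes with at least 80%. What sets the classes apart was not tested. Gm25256 gave no value in fits whose filter it did not pass. Depth limits Gm25256 most, with at most 30 counts in a library.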

Other observations

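Most counts on the 3 genes were even numbers. Of the libraries with a count above 0, 41 of 52 were even for Gm25848, 49 of 52 for Gm22009 and 26 of 27 for Gm25256, while 58.7% of all counts above 0 in the tables were even. Sequencing was paired-end. Whether both reads of a pair were counted is not given in the sources used here and was not tested.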
